A study of Mus musculus with 12 samples.

Results

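The serotonin receptor genes studied here are Htr1a, Htr1b, Htr1d, Htr1f, Htr2a, Htr2c, Htr3a, Htr4, Htr5a and Htr7, 10 of the 55401 genes counted. They were taken from a list of names that does not use their measured values but was drawn up with earlier results of these data known, and it leaves out Htr6 and Htr5b, which are described separately. Prefrontal cortex was taken from C57BL/6J males 14 weeks old, 4 weeks after adeno-associated virus (AAV, a vector that carries genes into cells) was injected into its dorsomedial part on both sides. All mice ate a standard chow containing vitamin B12, which the study relates to transthyretin and stress resilience. The 12 libraries form 3 groups of 4. The control group received pAAV.1-CAG-GFP, the overexpression group received a vector with GFP joined to the transthyretin gene Ttr (pAAV-CAG-GFP-P2A-Ttr-WPRE.bgH), and the knockdown group received an AAV in which the U6 promoter drives the hairpin Ttr-shRNA-2 and CAG drives GFP, followed by WPRE3. All 3 groups thus carry GFP under the general CAG promoter. The control vector came from another supplier than both Ttr vectors, so supplier and group cannot be told apart, and the labels do not say that each library is a different mouse.

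Serotonin is released in the cortex by axons of neurons whose cell bodies lie in the raphe nuclei of the brainstem, and the receptors on cortical cells sort by how they signal. Receptors of the 1 and 5 families act through inhibitory Gi/o proteins, those of the 2 family through Gq and phospholipase C, those of the 4, 6 and 7 families through Gs and cyclic AMP, and the 3 family forms ion channels. In the prefrontal cortex the 1A and 2A receptors of pyramidal neurons are the best studied, as inhibitory and excitatory arms, and the 2A receptor is the main target of hallucinogens.

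Libraries held 19879629 to 37166146 counts. Ttr, the gene the vectors target, stood at 94.2 to 639 CPM (counts scaled to library size) with overexpression, 0.491 to 8.50 CPM in controls and 0.146 to 1.86 CPM with knockdown, so its counts check the overexpression label and not the knockdown label. Markers of glutamatergic neurons summed to 5440 to 7440 CPM, while markers of striatal projection neurons varied widely within every group, from 227 to 1390 CPM. Of 4 genes taken as defining them, Adora2a had 72 to 1670 counts per library, Gpr6 21 to 498, Six3 1 to 333 and Isl1 1 to 98. Six3 and Isl1 were thus near 0 in some libraries. The serotonin neuron genes Tph2, Slc6a4, Fev and Slc18a2 summed to 0.561 to 1.5 CPM, and Fev, the transcription factor of serotonin neurons, had at most 1 count per library. Because the samples are bulk tissue, fewer cells of a type and less RNA per cell cannot be told apart.

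All 10 receptors passed the filter on low counts, and their mean levels spanned 0.963 to 24.5 TPM (the authors' value, scaled by gene length and library size). Htr2a, the Gq-coupled 2A receptor, was the highest with 24.5 ± 4.18 TPM (SD over 12 libraries), followed by the related Htr2c with 18.8 ± 8.52 TPM. Htr2a was above Htr2c in 10 of 12 libraries, and Htr2c above Htr1a, the inhibitory 1A receptor (12.7 ± 1.98 TPM), in 9. Htr5a, a Gi/o-coupled receptor, had 11.2 ± 1.13 TPM, below Htr1a in 10 of 12 libraries. The ranges of each of these neighbouring pairs overlapped.

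The channel subunit Htr3a had 8.78 ± 1.29 TPM and Htr1b, a receptor of axon terminals, 8.21 ± 1.12 TPM. They did not differ beyond their spread, with Htr3a the higher in 7 of 12 libraries. Htr7, a Gs-coupled receptor, had 5.26 ± 1.19 TPM, and Htr1f, a Gi/o-coupled receptor, 3.94 ± 0.784 TPM. Htr4, which is Gs-coupled, and Htr1d, which like Htr1b sits on axon terminals, were lowest with 1.07 ± 0.529 and 0.963 ± 1.15 TPM, and Htr4 was the higher in 9 of 12 libraries. Htr1d rested on 8 to 108 counts per library and Htr4 on 23 to 109, against 1045 to 2551 for Htr2a.

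**Figure D1:**
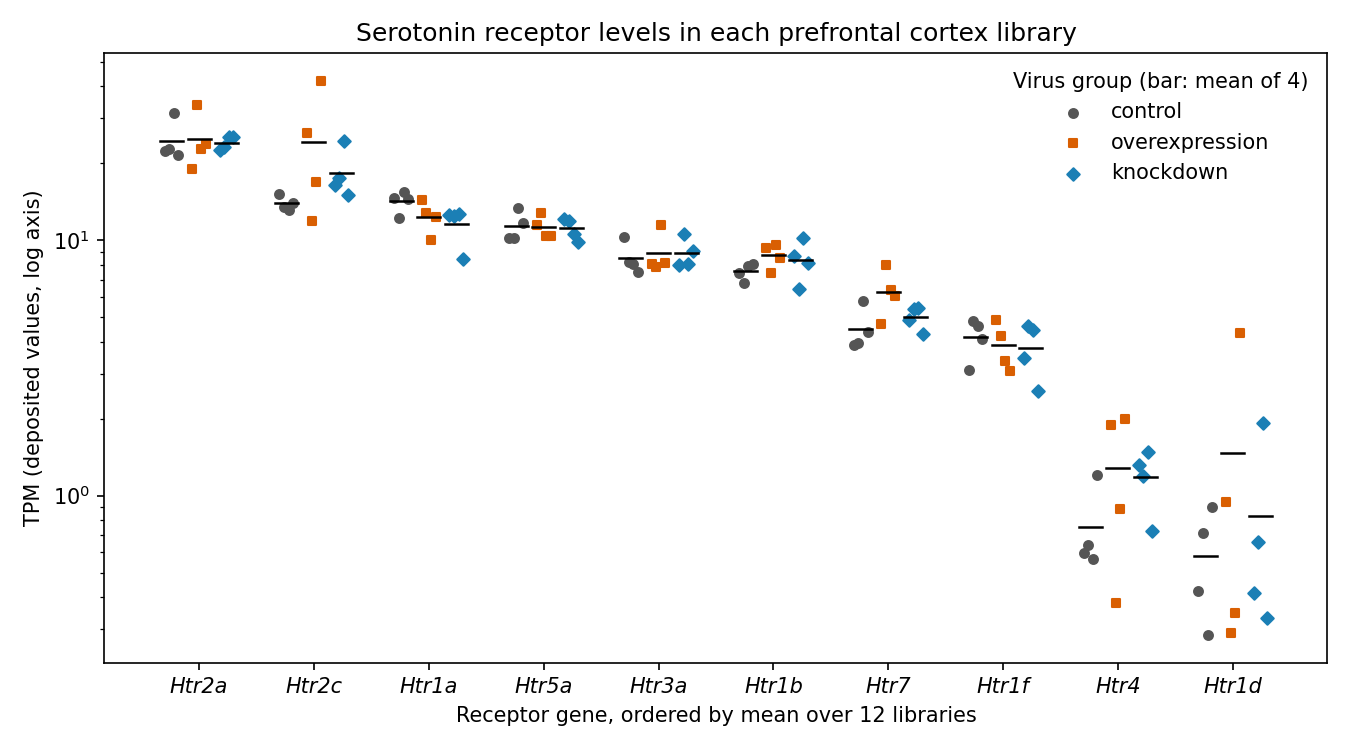
Deposited TPM of the 10 receptor genes (log axis), 1 point per library in 3 groups of 4, with a bar at each group mean. Htr2a is highest at 24.5 TPM on average, and Htr4 and Htr1d are lowest and spread most.

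The receptors also differed in how steady they were. From the lowest to the highest of the 12 libraries, TPM moved 1.35-fold for Htr5a, 1.54-fold for Htr3a, 1.59-fold for Htr1b, 1.78-fold for Htr2a, 1.83-fold for Htr1a, 1.89-fold for Htr1f and 2.05-fold for Htr7. The same ratio was 3.55 for Htr2c, 5.26 for Htr4 and 15.1 for Htr1d, the last of which includes the sampling noise of few counts. In controls the coefficient of variation of Htr2c was 6.61%, the lowest of the 10, and with overexpression it was 54.8%.

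The starts of 3 genes are shown because they are the most abundant receptor, Htr2a, and both receptors with RefSeq promoters among those that vary most, Htr2c and Htr1d. Each run holds 250 bases before to 50 after the RefSeq start on GRCm38.p6, all on the plus strand, at chr14:74640624-74640923 for Htr2a, chrX:146962263-146962562 for Htr2c and chr4:136423274-136423573 for Htr1d, whose second listed start is not shown. Capitals mark a GC box.
Htr2a: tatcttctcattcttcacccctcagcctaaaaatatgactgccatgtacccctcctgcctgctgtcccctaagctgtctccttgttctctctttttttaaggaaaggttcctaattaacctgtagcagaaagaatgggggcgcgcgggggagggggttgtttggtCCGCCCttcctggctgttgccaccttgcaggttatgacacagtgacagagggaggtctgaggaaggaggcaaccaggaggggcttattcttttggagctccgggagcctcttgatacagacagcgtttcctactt
Htr2c: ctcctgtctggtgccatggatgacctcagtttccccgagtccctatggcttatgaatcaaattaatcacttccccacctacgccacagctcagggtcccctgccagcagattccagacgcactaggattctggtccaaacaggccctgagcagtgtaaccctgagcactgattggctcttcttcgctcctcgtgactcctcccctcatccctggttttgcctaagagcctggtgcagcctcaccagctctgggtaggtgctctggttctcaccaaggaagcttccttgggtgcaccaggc
Htr1d: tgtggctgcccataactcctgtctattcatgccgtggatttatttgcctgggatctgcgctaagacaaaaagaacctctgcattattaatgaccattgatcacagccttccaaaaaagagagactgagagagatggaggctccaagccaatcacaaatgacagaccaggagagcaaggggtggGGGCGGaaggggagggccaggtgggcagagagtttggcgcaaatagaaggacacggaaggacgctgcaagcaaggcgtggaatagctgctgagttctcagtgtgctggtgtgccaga
Of the 10 genes, 8 had a promoter in the table. The letters GGGCGG (GC box, either strand) occurred in those of Htr2a, Htr1a, Htr1f and both of Htr1d, and in 35.7% of all 32851 promoters of this length. The E-box CACGTG and the cyclic AMP response element TGACGTCA, searched on both strands, occurred in 0 of the receptor promoters, against 7.15% and 1.79% of all promoters. TATAAA occurred in 0 of them on either strand, against 13.6% of all. These motifs were searched separately, with overlaps allowed. The Htr2c window held 0 of the 4 motifs.

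With Ttr overexpression compared with control, the question is what raised Ttr does to the tissue, here for serotonin reception. None of the 10 receptors passed the edgeR quasi-likelihood test over 18289 genes, in which 0.00547% of all genes passed, and DESeq2 and limma-voom also called 0 of the 10. At an unadjusted edgeR p below 0.05 there were 2, Htr2c and Htr7, both higher, against 6.26% of all genes. For 0 of the 10 were the CPM ranges of both groups apart, against 2.72% of all genes. The median log2 difference of the receptors was 0.085, with 6 positive and 4 negative, beside 0.004 for all genes tested.

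With Ttr knockdown compared with control, edgeR, DESeq2 and limma-voom likewise called 0 of the 10, against 0.00547% of all genes in edgeR. At an unadjusted edgeR p below 0.05 there was 1, Htr1a, which was lower, against 5.68% of all genes. Htr2c was the single receptor whose ranges were apart, against 4.11% of all genes. The median log2 difference was 0.10, with 6 positive and 4 negative, beside 0.005 for all genes. Both comparisons use the same 4 control libraries.

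Between overexpression and knockdown, whose vectors share a supplier, edgeR, DESeq2 and limma-voom called 0 of the 10 (0.00547% of all genes in edgeR). The receptors had 0 with an unadjusted edgeR p below 0.05, against 5.1% of all genes, and 0 with ranges apart, against 2.37%. Their median log2 difference was 0.027, with 7 positive and 3 negative, beside 0.000 for all genes. Htr7 had 0.29 ± 0.17 (95% interval -0.071 to 0.65), Htr2c 0.34 ± 0.28 (-0.27 to 0.95) and Htr1d 0.63 ± 0.76 (-1.02 to 2.27), with edgeR adjusted p of 0.974, 0.982 and 0.989. Without overexpression replicate 4 the Htr2c value was -0.055. The other 7 receptors lay between -0.05 (Htr3a) and 0.056 (Htr1a).

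**Figure D2:**
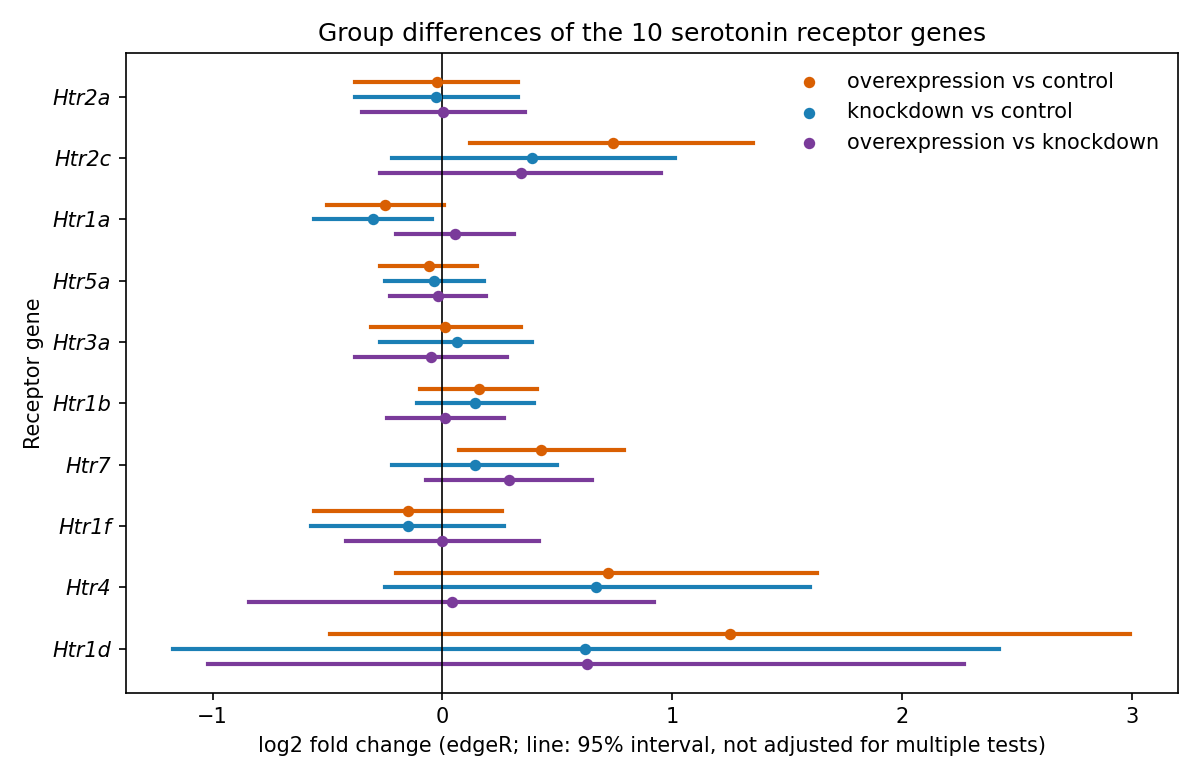
edgeR log2 fold change of each receptor in 3 comparisons (points), with 95% intervals (lines) that are not adjusted for multiple tests. Most intervals cover 0, and those of Htr4 and Htr1d are the widest.

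Among the Gq-coupled receptors, Htr2a held its level across the groups while Htr2c spread apart. Htr2a (ENSMUSG00000034997, plus strand of chromosome 14, 74640840 to 74709494 on GRCm38) had 50.6, 52.4, 69.6 and 47.7 CPM in control replicates 1 to 4. It had 40.4, 75.5, 50.0 and 51.1 CPM with overexpression and 50.7, 50.7, 55.1 and 60.2 CPM with knockdown. The highest and the lowest library were both overexpression libraries, and all groups overlapped. The log2 difference was -0.024 ± 0.16 (SE; 95% interval -0.38 to 0.33) in overexpression and -0.028 ± 0.16 (-0.38 to 0.33) in knockdown, each against control, with edgeR adjusted p of 0.99 and 0.992.

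Htr2c (ENSMUSG00000041380, plus strand of the X chromosome, 146962513 to 147197277), a receptor of cortical and subcortical neurons that is also abundant in choroid plexus, had 29.9, 27.1, 25.3 and 26.9 CPM in the controls. With overexpression it had 48.5, 23.0, 32.2 and 78.5 CPM in replicates 1 to 4, and with knockdown 32.4, 33.5, 46.1 and 30.9 CPM. Replicates 1 and 4 of overexpression were high and replicate 2 was below every control, whereas all 4 knockdown libraries lay above all 4 controls by margins that, apart from replicate 3, were small. The log2 difference from control was 0.74 ± 0.28 (SE; 95% interval 0.12 to 1.35; 1.66-fold) with overexpression, with an edgeR adjusted p of 0.747, and 0.39 ± 0.28 (-0.22 to 1.01) with knockdown, with an edgeR adjusted p of 0.922. Without overexpression replicate 4 the first value was 0.33, and without replicate 2 it was 0.96. The knockdown value was 0.24 without knockdown replicate 3, and -0.25 with a choroid plexus marker score as covariate, a fit chosen after seeing the data. That score averaged only the 5 of 11 markers that passed the filter, which can keep a low gene through the group where it is high. The score itself differs between the groups, so this fit cannot fully part score from group. Annotated small RNA genes lie within Htr2c on the same strand, 8 in all.

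The Gs-coupled receptors Htr4 and Htr7 had higher means in both Ttr groups than in controls, without passing. Htr7 (ENSMUSG00000024798, minus strand of chromosome 19, 35958734 to 36057507) had 4.80, 4.97, 7.02 and 5.29 CPM in controls, 5.43, 9.75, 7.63 and 7.06 CPM with overexpression and 5.97, 6.44, 6.45 and 5.56 CPM with knockdown. Control replicate 3 was the one control above the lowest overexpression library, replicate 1. The difference with overexpression was 0.43 ± 0.17 on the log2 scale (95% interval 0.07 to 0.79; 1.35-fold; edgeR adjusted p = 0.748), and it ranged from 0.27 without overexpression replicate 2 to 0.57 without control replicate 3. With knockdown it was 0.14 ± 0.17 (edgeR adjusted p = 0.962).

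Htr4 (ENSMUSG00000026322, plus strand of chromosome 18) had 1.12, 1.23, 1.04 and 2.21 CPM in controls, 3.33, 0.703, 1.61 and 3.55 CPM with overexpression and 2.48, 2.17, 2.68 and 1.43 CPM with knockdown. Control replicate 4 stood above the other 3 controls and overlapped both Ttr groups, and overexpression replicate 2 was the lowest of all 12. The log2 difference was 0.72 ± 0.42 (95% interval -0.20 to 1.63) with overexpression and 0.67 ± 0.43 (-0.25 to 1.6) with knockdown, with edgeR adjusted p of 0.843 and 0.911. The overexpression value was 0.43 without overexpression replicate 4, 0.45 without replicate 1 and 1.03 without replicate 2. The knockdown value ranged from 0.54 without control replicate 3 to 0.97 without control replicate 4.

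The Gi/o-coupled receptors had no common direction. Htr1a (ENSMUSG00000021721, a gene of 1 exon on the plus strand of chromosome 13, 105443639 to 105448122), which as an autoreceptor and on pyramidal neurons dampens firing, had 26.3, 22.5, 27.4 and 25.8 CPM in controls. It had 24.4, 22.9, 17.5 and 21.1 CPM with overexpression and 22.7, 21.9, 22.0 and 16.0 CPM with knockdown. Of the controls, replicate 2 alone lay below the highest knockdown library, and overexpression replicate 3 and knockdown replicate 4 were the lowest of all. The difference from control was -0.25 ± 0.12 on the log2 scale (95% interval -0.50 to 0.0084; edgeR adjusted p = 0.807) with overexpression and -0.30 ± 0.12 (-0.56 to -0.045; edgeR adjusted p = 0.838) with knockdown. Without knockdown replicate 4 the second was -0.20. Deep-layer neuron markers, 8 genes of which 6 had a lower mean in each Ttr group, summed to 583 to 792 CPM in controls, 560 to 725 with overexpression and 474 to 644 with knockdown, lowest in knockdown replicate 4. Among controls the marker sum was lowest in replicate 3, where Htr1a was highest. Their part in the result was not tested.

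Htr1b (ENSMUSG00000049511, minus strand of chromosome 9, 81628291 to 81633828) had 13.3 to 15.1 CPM in controls, 14.0 to 17.7 with overexpression and 11.9 to 18.7 with knockdown. Its log2 differences from control were 0.16 ± 0.12 and 0.14 ± 0.12 (edgeR adjusted p = 0.86 and 0.936). An antisense gene, D430036J16Rik, overlaps it, and since the strand setting of the counting is not given in the sources used here, its counts are uncertain to that extent. Htr5a (ENSMUSG00000039106, plus strand of chromosome 5, 27842149 to 27855088) had 22.2 to 28.4 CPM in controls, 21.4 to 27.4 with overexpression and 22.1 to 26.2 with knockdown. Its differences, -0.059 ± 0.10 and -0.038 ± 0.10, had the narrowest intervals of the 10 receptors, -0.27 to 0.15 and -0.25 to 0.18 (edgeR adjusted p = 0.948 and 0.984).

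Htr1f (ENSMUSG00000050783, minus strand of chromosome 16, 64924729 to 65105854) had 3.23 to 5.10 CPM in controls, 3.02 to 4.76 with overexpression and 2.81 to 4.66 with knockdown, a difference of -0.15 ± 0.19 in each comparison with control (edgeR adjusted p = 0.927 and 0.966). Htr1d (ENSMUSG00000070687, plus strand of chromosome 4, 136423524 to 136444398) had 12, 20, 12 and 24 counts in control replicates 1 to 4, 34, 11, 11 and 108 with overexpression and 10, 19, 76 and 8 with knockdown. A single library in each Ttr group, overexpression replicate 4 with 4.80 CPM and knockdown replicate 3 with 2.17 CPM, stood above all other libraries, which had 0.328 to 1.04 CPM. The log2 differences of 1.25 ± 0.81 and 0.62 ± 0.83 (edgeR adjusted p = 0.855 and 0.968) turned to -0.15 without overexpression replicate 4 and to -0.24 without knockdown replicate 3.

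The ion channel gene Htr3a (ENSMUSG00000032269, minus strand of chromosome 9, 48899213 to 48911099), which in cortex marks a class of interneurons, had 8.62, 7.01, 6.63 and 6.16 CPM in controls, 6.35, 6.51, 9.35 and 6.44 with overexpression and 6.65, 8.58, 6.50 and 7.96 with knockdown. The groups overlapped throughout, and the differences were 0.012 ± 0.15 and 0.062 ± 0.15 (edgeR adjusted p = 0.995 and 0.984). Interneuron markers of the VIP, CCK and LAMP5 classes summed to 487 to 639, 510 to 652 and 587 to 632 CPM in the same order of groups. That sum leans on Cnr1 (218 CPM in controls) and Lamp5 (152) and can hide its lower members. In each Ttr group 7 of the 9 markers were higher than in controls, and edgeR passed 0. At an unadjusted edgeR p below 0.05 there were 1 in overexpression and 3 in knockdown, all higher, against 6.26% and 5.68% of all genes. Htr3b, the partner subunit of Htr3a, had 1 count in 1 of 12 libraries and 0 in the others. An antisense gene, Gm32335, overlaps Htr3a.

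**Figure D3:**
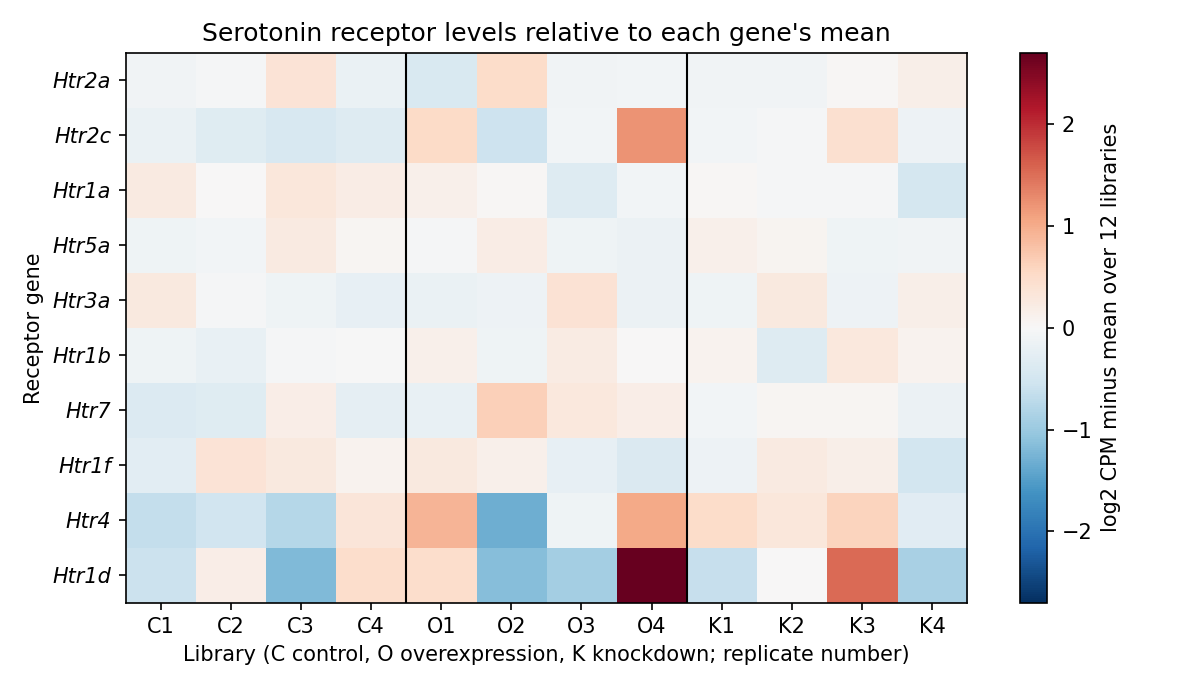
log2 CPM of each receptor minus its mean over the 12 libraries, libraries in columns by group (C control, O overexpression, K knockdown). Htr2c, Htr4 and Htr1d are high together in O4 and K3 and, except for a weaker Htr1d, in O1.

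By class, the summed level of the Gi/o-coupled receptors was 37.8 ± 3.20 TPM in controls, 37.7 ± 3.05 with overexpression and 35.6 ± 4.45 with knockdown (SD, n = 4). The Gq-coupled pair had 38.4 ± 4.14, 49.1 ± 11.5 and 42.4 ± 4.93 TPM. The Gs-coupled pair had 4.50 to 6.37 TPM in controls, 6.57 to 8.39 with overexpression and 5.04 to 6.93 with knockdown, so that its overexpression libraries lay just above the controls. Alone, Htr4 and Htr7 each overlapped between these groups, and the sum leaves out Htr6, which is also Gs-coupled. Of single genes, 2.72% had CPM ranges apart in that comparison. Gi/o-coupled receptors made up 42.0% ± 1.86 of the TPM of the 10 genes in controls, 36.7% ± 3.59 with overexpression and 38.2% ± 2.53 with knockdown. These sums are given without a test.

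Htr2c, Htr1d and Htr4 were high in libraries that also stood out for markers of other cells. Striatal projection neuron markers (11 of 11 tested) summed to 280 to 1110 CPM in controls, 240 to 1390 with overexpression and 227 to 1250 with knockdown, highest in overexpression replicate 4, knockdown replicate 3 and control replicate 4. Control replicate 4 had the highest Htr4 and Htr1d of the controls but not the highest Htr2c. Thalamic markers (4 of 4 tested) summed to 27.9 to 28.7, 30.4 to 40.8 and 26.9 to 37.3 CPM, and claustrum and insular markers (4 of 4 tested) to 74.3 to 85.2, 62.8 to 125 and 84.3 to 97.8 CPM. Their part in the result was not tested.

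Choroid plexus markers, of which 5 of 11 passed the filter, summed to 5.34 to 6.68 CPM in controls, 5.72 to 15.5 with overexpression and 6.22 to 11.6 with knockdown. All 5 tested had a higher mean in each Ttr group, but the filter can keep a low gene through the group where it is high. The markers that did not pass had no common direction. In controls, overexpression and knockdown the means were 0.195, 0.182 and 0.203 CPM for Folr1 and 0.0712, 0.0388 and 0.0605 for Tmem72. Slc4a5 had 0.0992, 0.0574 and 0.0659, and Otx2 0.0391, 0.243 and 0.168. Sostdc1 had 0.351, 0.464 and 0.338, and Cldn2 0.14, 0.191 and 0.104. The sum leans on Kl (2.78, 3.81 and 3.27) and Clic6 (1.08, 2.36 and 1.41), which had the highest means of the 11 in every group. Ttr, which the vectors target, was highest among controls in replicate 2 (8.50 CPM), where the marker sum was 5.90 CPM. In knockdown replicate 3 the sum was 11.6 CPM and Ttr had 0.827 CPM, but the hairpin targets Ttr there. Of the defining markers Folr1 had 0 to 11 counts per library, Tmem72 0 to 5, Otx2 0 to 15 and Sostdc1 6 to 17, and Kcnj13 had 0 to 32 in controls, 23 to 57 with overexpression and 4 to 40 with knockdown, against 605 to 1768 for Htr2c. In fits chosen after seeing the data, the log2 difference of Htr2c in overexpression against control was 0.53 with the striatal score as covariate, -0.23 with the choroid plexus score and 0.33 without the 3 libraries richest in striatal markers. For Htr1d these values were 0.55, -1.62 and 0.13, and for Htr4 0.46, 0.017 and 0.73. In knockdown against control they were 0.30, -0.25 and 0.23 for Htr2c, 0.19, -1.43 and 0.045 for Htr1d, and 0.58, 0.19 and 0.85 for Htr4. The choroid plexus score averaged only the 5 markers that passed the filter. It was -0.835 to -0.167 in controls, -0.153 to 1.055 with overexpression and -0.183 to 0.654 with knockdown. The scores thus differ between the groups as well as within them, so such fits cannot fully part score from group.

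**Figure D4:**
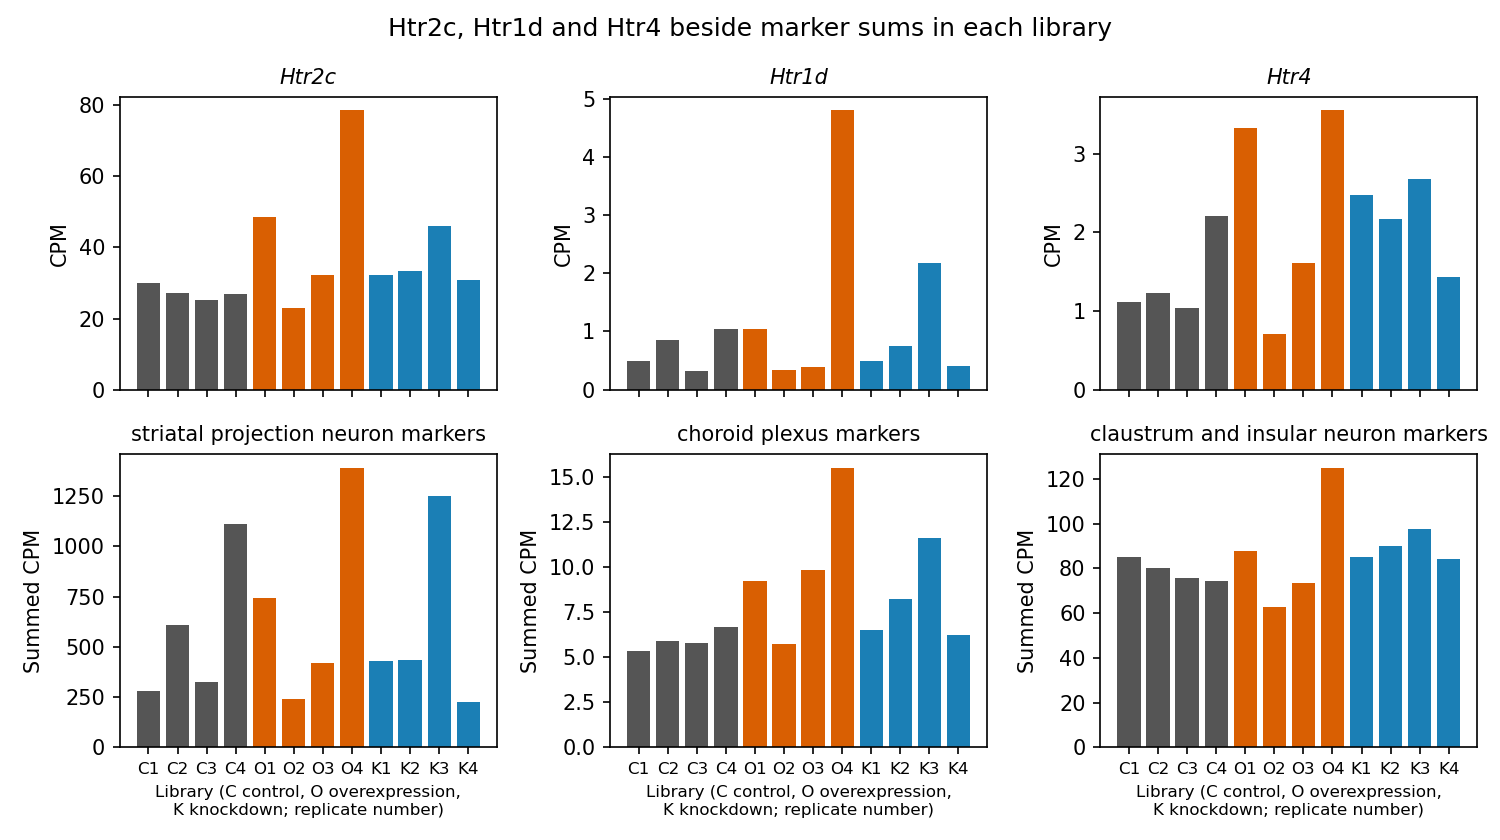
CPM of Htr2c, Htr1d and Htr4 (upper row) and summed CPM of 3 marker lists (lower row), 1 bar per library. Overexpression replicate 4 (O4) is highest in all 6 panels, and control replicate 4 (C4) is high in striatal markers with Htr2c at 26.9 CPM.

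Genes whose log2 CPM followed each receptor most closely over the 12 libraries were found by Pearson's r, as a description without a test. For Htr2c they were Ppp1r2 (0.955), Lmo7 (0.945) and Arhgap6 (0.939), and for Htr1d Strip2 (0.964), Lmo3 (0.957) and Tac1 (0.955), the precursor of substance P. Htr4 was followed by Crabp1 (0.961), which binds retinoic acid, Tarbp1 (0.955) and Plppr1 (0.937). For Htr2a the named genes were AC125122.1 (0.943), Chn1 (0.930) and Gm38387 (0.914), and for Htr1a Trio (0.943), Pmfbp1 (0.928) and Pitpnc1 (0.906). Htr7 was followed by Akap12 (0.915), Slc2a13 (0.915) and Nupr1 (0.908), and Htr5a by Eif2ak1 (0.919), Gars (0.903) and Depdc5 (0.895). Htr1b was followed by 4933406C10Rik (0.911), Slc24a4 (0.870) and Bcat2 (0.861), Htr3a by Cnbp (0.902), Vgll4 (0.856) and Gclm (0.849), and Htr1f by Pot1a (0.882), Gm11295 (0.860) and Asah2 (0.848). The top of a ranking over all genes is high by construction, and libraries that stand apart weigh on every such value. By rank (Spearman's rho) the same pairs ran from 0.671 (Htr3a with Cnbp) to 0.937 (Htr4 with Crabp1). Htr2c had 0.790 with Ppp1r2 and 0.762 with Lmo7, and Htr1d 0.797 with Strip2.

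Of the other serotonin receptor genes, Htr6, which is Gs-coupled, had 4.89 ± 0.651 TPM (SD over 12 libraries), below Htr7 in 5 of 12 libraries, and Htr5b 1.11 ± 0.336 TPM. Htr2b had 0 to 6 counts per library and was not tested. For Htr6 the log2 differences from control were 0.17 ± 0.13 with overexpression and 0.18 ± 0.13 with knockdown (edgeR adjusted p = 0.864 and 0.916), and for Htr5b -0.01 ± 0.29 and 0.26 ± 0.30 (edgeR adjusted p = 0.997 and 0.961).

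Genes for making, moving and breaking down serotonin were low where they belong to raphe neurons. Tph2, the enzyme of serotonin synthesis in neurons, had 6 to 22 counts per library, and the transporter Slc6a4 0 to 4, while Maoa, a monoamine oxidase, had 839 to 1582. Of this list 13 of 16 genes were tested and edgeR passed 0 in each comparison, with medians of -0.01 in overexpression and 0.017 in knockdown against control. Slc22a2, a low-affinity organic cation transporter, had 6, 2, 14 and 3 counts in control replicates 1 to 4, 29, 23, 36 and 28 with overexpression and 6, 6, 41 and 10 with knockdown. Its overexpression libraries (0.703 to 1.29 CPM) lay above all controls (0.0850 to 0.382 CPM). The log2 difference was 2.15 ± 0.51 (edgeR adjusted p = 0.522). The filter can keep a gene this low through the group where it is high, so the gap may partly reflect that selection. Among all genes, 2.72% had CPM ranges apart between these groups, and among the 13 tested here Slc22a2 alone. Mural and meningeal markers summed to 94.8 to 164 CPM with overexpression and 40.0 to 77.2 in controls, with a higher mean for 10 of 10. That list was chosen with earlier results of these data known, so its direction is not an independent result. The part of these markers in the result was not tested. The next by p in overexpression were the transporters Slc29a4 (0.36 ± 0.19, edgeR adjusted p = 0.836) and Slc22a3 (0.79 ± 0.46, edgeR adjusted p = 0.843). In knockdown they were Slc22a2 (1.36 ± 0.55, edgeR adjusted p = 0.843), the vesicle transporter Slc18a2 (1.00 ± 0.46, edgeR adjusted p = 0.878) and Qdpr (-0.39 ± 0.20, edgeR adjusted p = 0.897), which recycles the cofactor of the synthesis enzyme.

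G proteins and effectors of the receptors had mostly slightly lower means than in controls, and edgeR passed 0 of 24 in each comparison. In overexpression 19 of 24 were lower with a median of -0.047, beside 0.004 for all genes. In knockdown 19 of 24 were lower with a median of -0.032, beside 0.005 for all genes. Both comparisons share the controls, so these counts are not independent. Lower means were not particular to these genes. Glutamatergic neuron markers were lower for 5 of 6 (median -0.14) in overexpression and 4 of 6 (-0.088) in knockdown. Upper-layer neuron markers went the other way, with 4 of 6 higher (median 0.052) and 5 of 6 higher (0.082). Plcb4, a phospholipase C activated by Gq, had 54.3 to 89.4 CPM with overexpression and 74.6 to 102 in controls (-0.35 ± 0.15, edgeR adjusted p = 0.783). The next in overexpression were Kcnj6 (-0.18 ± 0.10) and Gna11 (-0.075 ± 0.05), an alpha subunit of the Gq class, with edgeR adjusted p of 0.836 and 0.859. In knockdown the adenylyl cyclase Adcy9 (-0.24 ± 0.10) and Gnai3, an inhibitory alpha subunit (0.16 ± 0.07), had edgeR adjusted p of 0.857 and 0.878. Kcnj6, a potassium channel that Gi/o-coupled receptors open, had 26.4 to 28.4 CPM with knockdown and 28.6 to 34.0 in controls, ranges that nearly touch (-0.20 ± 0.10, edgeR adjusted p = 0.897). It was 1 of 2 among the 24 with ranges apart in knockdown, both lower, against 4.11% of all genes.

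Of receptor partners and regulators edgeR passed 0 of 16 in each comparison. In overexpression 12 of 16 were lower (median -0.047, beside 0.004 for all genes) and in knockdown 8 of 16 (median -0.0024, beside 0.005). S100a10, which binds the 1B and 4 receptors and carries them to the cell surface, had 23.9 to 31.2 CPM with knockdown and 22.3 to 23.4 in controls (0.16 ± 0.11, edgeR adjusted p = 0.912). It was 1 of 16 with ranges apart in knockdown against control, where 4.11% of all genes were apart. Grk5, a receptor kinase (0.16 ± 0.08), and the RNA-editing enzyme Adar (0.067 ± 0.06) had edgeR adjusted p of 0.893 and 0.938 in that comparison. In overexpression the smallest p belonged to Cc2d1a (-0.14 ± 0.08), a repressor of Htr1a, Grk2 (-0.11 ± 0.07) and the scaffold Dlg4 (-0.097 ± 0.07), with edgeR adjusted p of 0.842, 0.849 and 0.859. Between overexpression and knockdown Adar had -0.13 ± 0.06, S100a10 -0.22 ± 0.11, Gnai3 -0.14 ± 0.07, Adcy9 0.18 ± 0.10 and Slc18a2 -0.87 ± 0.45, with edgeR adjusted p of 0.967 for Adar and 0.974 for the others.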

How the data were processed

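Per the labels' protocols, a directional kit with poly(A) selection and molecular identifiers was used on 500 ng of RNA. Bcl2fastq 2.20.0.422, UMI-tools, featureCounts, DESeq2 and build GRCm38 appear in the submitters' processing notes without roles. Aligner, strand setting and identifier use were not given in the sources used here. The authors deposited whole-number counts per gene, not normalized, and TPM, which equalled counts over a single length per gene within 0.01 on the log2 scale for 100% of the 12003 genes compared. The deposited variance-stabilised values were not used.

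Of 55401 identifiers, 55141 were matched to symbols (the others held 0.00474% of counts), with positions from GENCODE M21. edgeR 4.0.16 in R 4.3.3 tested the counts (TMM factors, default filter, 3 group means, quasi-likelihood, Benjamini-Hochberg over 18289 genes, threshold 0.05). CPM used the same factors. Alternatives used DESeq2 1.42.0, limma 3.58.1, other scalings and filters, the 2 groups alone, a replicate block and each library left out. The steps were tested on simulated data. Receptors and lists were chosen with earlier results of these data known. Text names Ttr, all 10 receptors, up to 3 genes of each other list with the smallest p and the 3 genes most like each receptor; levels of Htr2b, Htr3b, Tph2, Slc6a4, Fev and Maoa were chosen after their values were seen. P-values measure the spread between libraries, part of which may be technical, and 18 pairs of replicates differed beyond sampling noise (chi-square per degree of freedom 5.37 to 28.4). Figures used Python 3.11.15 and matplotlib 3.10.9.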

Additional observations from a re-analysis of the deposited data

Results flagged for a closer look

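Each group of 4 libraries was searched for a receptor value far from the other 3, which chance alone gives in about 1 in 20 groups, and 4 of the 30 receptor-and-group sets held one. Htr1d had 4.80 CPM in overexpression replicate 4, against 0.336 to 1.04 in the other 3. Htr4 had 2.21 CPM in control replicate 4, against 1.04 to 1.23. Htr3a had 9.35 CPM in overexpression replicate 3, against 6.35 to 6.51. Htr1a had 16.0 CPM in knockdown replicate 4, against 21.9 to 22.7.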

How the results depend on the processing

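The number of receptors passing was 0 in all 3 comparisons under each alternative run, including each library left out. The count of all genes passing, 1 in each comparison, was less steady. In overexpression against control it was 38 with DESeq2, 20 with no filter on low counts, 0 with limma-voom, with the 2 groups alone, with the choroid plexus covariate or without the 3 libraries richest in striatal markers, and 0 to 4 with single libraries left out. In knockdown against control it was 43 with DESeq2, 22 with no filter, 2 with the 2 groups alone, 4 with the striatal covariate, 0 on TPM with either pseudocount (0.1 or 1), with either the choroid plexus covariate or the 3 libraries richest in striatal markers left out, and 0 to 10 with single libraries left out. In overexpression against knockdown it was 3 with DESeq2, 0 with limma-voom or without those 3 libraries, and 0 to 2 with single libraries left out. With the replicate number as a block it was 1, 0 and 2. Libraries of the same number had correlations of deviations of -0.341 to 0.16. These were not set against libraries of different number, so whether numbers pair the libraries is not settled. The block changed no receptor's call.

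Directions turned in many cases where differences were near 0, but also for some of the largest. These were Htr1d (1.25 in overexpression and 0.62 in knockdown, against control) and Htr2c (0.74 and 0.39). The cause was not tested. Against control, overexpression gave Htr2a 0.0057 and 0.006 on TPM (pseudocounts 0.1 and 1), and Htr3a -0.014 without the 3 striatal-rich libraries. With the choroid plexus covariate it gave Htr1d -1.62, Htr2a 0.036, Htr2c -0.23 and Htr5a 0.066, and knockdown gave -1.43, 0.018, -0.25 and 0.055 for the same genes. Knockdown gave Htr2a 0.0042 with the striatal covariate. In overexpression against knockdown, limma-voom gave Htr1d -0.021, Htr2a -0.03 and Htr4 -0.25. The replicate block gave Htr1f 0.01, Htr2a -0.018 and Htr4 -0.12, and no filter gave Htr1f 0.011. TPM gave Htr1f 0.05 and 0.038, Htr5a 0.02 and 0.018 (pseudocounts 0.1 and 1) and Htr4 -0.075 (0.1). The striatal covariate gave Htr1f 0.0047, Htr2a -0.01 and Htr4 -0.12, the choroid plexus covariate Htr1b -0.015, Htr1d -0.19, Htr4 -0.17 and Htr5a 0.011, and leaving out the 3 libraries Htr1f 0.16 and Htr4 -0.11.

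With single libraries left out, overexpression against control ranged from -0.15 to 1.61 for Htr1d, -0.23 to 0.11 for Htr2a, -0.15 to 0.12 for Htr3a and -0.14 to 0.022 for Htr5a. Knockdown against control ranged from -0.24 to 0.90, -0.091 to 0.11, -0.017 to 0.17 and -0.084 to 0.043 for the same genes. Overexpression against knockdown ranged from -0.045 to 0.14 for Htr1a, -0.10 to 0.11 for Htr1b, -0.78 to 1.49 for Htr1d, -0.12 to 0.096 for Htr1f, -0.20 to 0.12 for Htr2a, -0.055 to 0.56 for Htr2c, -0.20 to 0.028 for Htr3a, -0.23 to 0.35 for Htr4 and -0.10 to 0.025 for Htr5a. Fits with a covariate or the 3 libraries left out were chosen after seeing the data. Depth limits Htr1d and Htr4, with as few as 8 and 23 counts per library.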
